A study of Mus musculus with 4 samples.

Results

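The 4 clonal lines of the mouse neural stem cell line c17.2, which is immortalised, were compared here as 2 matched pairs, which had been put together because their members divided at similar rates. Pair 1 is clone 42 with puroB, and pair 2 is clone 48 with puroD. The labels give clones 42 and 48 as stable transfectants of Nurr1, an orphan nuclear receptor, and give the vector with puromycin resistance alone for puroB and puroD, so each pair holds 1 Nurr1-labelled line and 1 control line. All lines share the c17.2 background, and all were grown in proliferating conditions. All 4 of the 4 arrays in the series enter the comparison, 2 per pair, and the question is which genes differed between pair 1 and pair 2 in the same direction in both label groups. The text written for the design repeats the number of clone 42 where clone 48 is meant, and the description of each line was followed. The sources used here do not give which pair divided faster, nor the promoter that drives the transgene. Each line is a single clone read on 1 array, so the number of arrays limits the precision, and a difference between pairs cannot be told apart from differences between the individual clones.

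Proliferating cells raise transcripts of DNA replication in S phase and of the spindle and kinetochore in G2 and mitosis, while cells that slow down or meet stress raise growth arrest genes such as those of the Gadd45 family. The Id proteins are helix-loop-helix factors without a DNA-binding domain that hold back differentiation in neural progenitors. Cholesterol synthesis from acetyl-CoA runs through mevalonate, farnesyl diphosphate and lanosterol, and its enzymes are switched on together by the transcription factor SREBP2, which works with the CCAAT-binding factor NF-Y at many of their promoters.

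The signals are MAS5 values, in which the probe pairs of a probe set are combined into 1 linear intensity, and were brought here to a trimmed mean of 500 per array. Signals under 62.6, the brightest of 15 control probe sets for transcripts that had not been spiked in, were set to that floor before log2 was taken. Of 12403 gene probe sets, 6419 were tested, for 4957 genes with 1 symbol each. The array medians were 147.0 on clone 42, 160.0 on puroB, 125.5 on clone 48 and 145.8 on puroD. The 3′ over 5′ signal ratio of actin, which rises as RNA is degraded or copied incompletely, was 1.68 on clone 42 and 1.51 on puroB against 2.41 on clone 48 and 2.0 on puroD. For Gapdh it was 0.935 and 0.859 in pair 1 against 1.24 and 0.973 in pair 2. For actin and Gapdh both arrays of pair 2 thus stood above both of pair 1, and this difference in RNA ratio cannot be told apart from the pair in any result below. For pyruvate carboxylase the ratio was 3.39 and 2.26 in pair 1 against 3.87 on clone 48 and at least 3.43 on puroD, whose 5′ signal was under the floor. For the transferrin receptor it was 5.76 and 6.37 against at least 3.64 on clone 48, for the same reason, and 6.22 on puroD, which gives no order of the pairs. The 3′ over middle ratio of actin was 1.72 and 1.9 against 2.05 and 2.09, and that of Gapdh, 0.92 and 0.77 against 0.913 and 0.958, overlapped between the pairs. With 2 arrays against 2, an exact two-sided permutation test cannot go below p = 0.333.

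Nr4a2, the gene of Nurr1, has 2 probe sets on the array. The first gave 320 on clone 42, 206 on clone 48, 485 on puroB and 254 on puroD, and the second 188, 113, 372 and 213. The control line of each pair thus had the higher signal, against the labels, so the lines are called Nurr1-labelled here. Pair 1 was above pair 2 in both label groups, with means of 0.78 ± 0.31 and 0.77 ± 0.34 (limma adjusted p = 0.327 and 0.413), neither of which passed. Whether the probes also read the transgene is not stated in the labels.

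The growth arrest genes Gadd45a and Gadd45b, the stress factors Fos and Atf3 and lipid genes such as Slc27a1, Scd1 and Msmo1 rose in pair 1 against pair 2. Id1, Rgs16, Igfbp3 and Aspm fell. In limma, with the label as a block and Benjamini-Hochberg adjustment, 31 of 6419 probe sets (0.483%) passed an adjusted p of 0.05. They comprise 28 with 1 gene symbol, for 27 genes, 1 with several symbols and 2 with none. In all, 25 were higher in pair 1 (0.389% of those tested) and 6 were lower (0.0935%). All 31 had the same direction in both label groups and at least a 2.14-fold difference in each, and on none did the arrays of the pairs overlap. Of all tested probe sets 40.2% were separated in this way, 23.4% with pair 1 above and 16.8% with pair 1 below. At an unadjusted p under 0.05, 442 probe sets were higher and 248 lower. The calls rest on 1 residual degree of freedom and on a spread pooled over probe sets, and limma made 0 calls without the label block (521 at an unadjusted p under 0.05), after quantile normalization (580) or without the filter on low signals (615). With the block dropped, it also made 0 calls without clone 42 (578), clone 48 (280) or puroD (432), and 37 without puroB, of which 10 were among the 31. Testing needed a signal above 145.05, the median of all values, on 2 arrays. For 5 of the 31 (Bhlhe40, Cryz, St6gal1, Synpo and Zbtb17) only the pair with the higher signal met this, so their entry into the test depended on the difference itself. Of the 31, 21 exceeded it on all 4 arrays, and these 21 also passed when that was required of every probe set. In that fit the pooled spread weighed as 333 degrees of freedom rather than 14.1, and limma made 100 calls. It used the same 4 arrays, so it is no separate support for the 21. When arrays were scaled to their medians, which moved the median difference of all probe sets from 0.03 to -0.16, the calls were 34 higher and 33 lower, so that 50.7% rather than 80.6% were higher.

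The difference between clone 42 and clone 48 and that between puroB and puroD share no array. Across the 6419 probe sets they correlated with Pearson's r = 0.198 and Spearman's rho = 0.195, as a description over genes that are not independent, and 56.8% of probe sets had the same sign in both. At least a 2-fold difference in both label groups in the same direction was seen for 85 probe sets (1.32%), 63 of them higher in pair 1 (0.981%) and 22 lower (0.343%), and in opposite directions for 32. Alone, 684 probe sets reached 2-fold between the Nurr1-labelled clones and 388 between the control lines. The 63 and 22 became 50 and 35 after quantile normalization and 37 and 48 with scaling to the median.

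**Figure D1:**
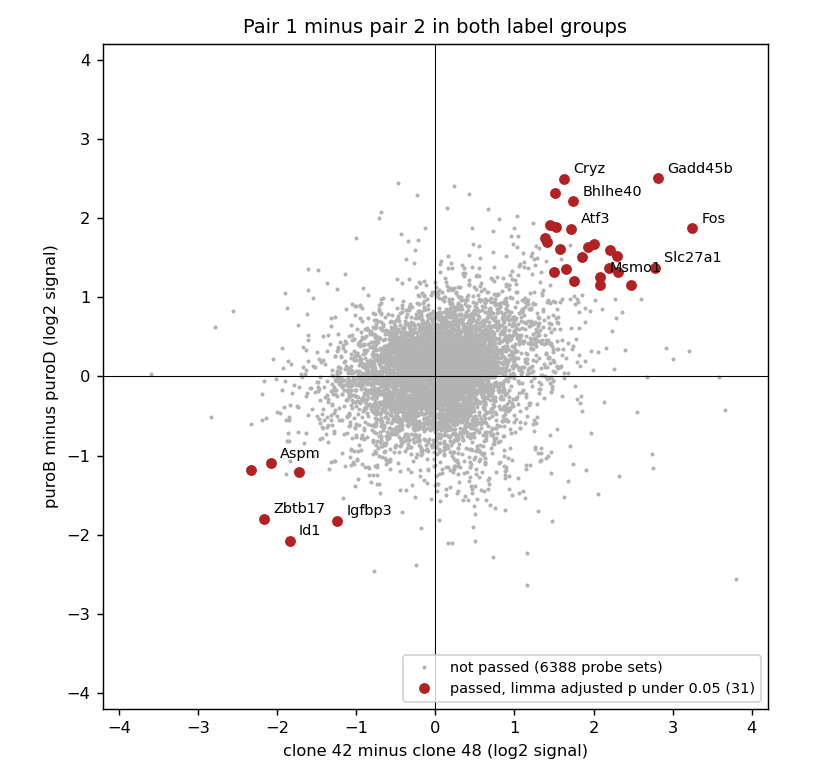
Log2 difference of clone 42 from clone 48 (horizontal) against that of puroB from puroD (vertical) for the 6419 tested probe sets; red points are the 31 that passed limma. All 25 that were higher lie at the upper right and all 6 that were lower at the lower left; scaling to the median instead gives 34 higher and 33 lower.

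Gadd45b and Fos had the smallest adjusted p-values of the calls. Gadd45b, a growth arrest and DNA damage gene, had signals of 1702 on clone 42 and 747 on puroB against 243 on clone 48 and 132 on puroD. Both arrays of pair 1 lay above both of pair 2, as for 23.4% of all tested probe sets. The mean log2 difference was 2.66 ± 0.29 (SE), a 6.3-fold difference (limma adjusted p = 0.00115). The second Gadd45b probe set gave a mean of 1.25 and did not pass (limma adjusted p = 0.0878). Gadd45a, a close relative, stood at 4982 and 2156 in pair 1 against 1007 and 867 in pair 2, with a mean log2 difference of 1.81 ± 0.33 (limma adjusted p = 0.0258).

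Fos, a component of the AP-1 transcription factor, had signals of 2666 on clone 42 and 837 on puroB against 281 on clone 48 and 228 on puroD. The difference was 9.48-fold between the Nurr1-labelled clones and 3.67-fold between the controls, with a mean log2 value of 2.56 ± 0.34 (limma adjusted p = 0.00569). Atf3, a stress-induced transcription factor, measured 6479 and 2799 against 1966 and 767, a mean of 1.79 ± 0.31 (limma adjusted p = 0.0223). A second Atf3 probe set gave 1.49 and did not pass (limma adjusted p = 0.0527). Bhlhe40, a helix-loop-helix repressor of the clock and hypoxia responses, measured 435 and 578 against 130 and 125, a mean of 1.98 ± 0.32 (limma adjusted p = 0.0201), and it was tested through pair 1 alone. For each of these 3 genes, clone 42 and puroB lay on the same side of both pair 2 lines. The same held for all 31 calls and for 40.2% of all tested probe sets.

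Of 18 tested members of the immediate early and serum response list, 10 were higher in both label groups and 4 lower in both, against 31.6% and 24.5% of the 4957 genes, and Fos and Atf3 passed (2 of 18, against 0.484% of the genes). The median mean difference was 0.46, beside 0.01 for all genes, and 0.28 with scaling to the median. Klf4, a zinc finger factor, did not pass, at 423 and 283 against 69.6 and 143 with a mean log2 difference of 1.79 (limma adjusted p = 0.0636). Klf4 was tested through pair 1 alone, so its entry into the test depended on the difference itself. Jun, chosen after its values were seen, differed by 0.42 between the Nurr1-labelled clones and 1.54 between the controls. Egr1, likewise chosen, was lower in both at -0.56 and -0.38. Of the stress genes of the amino acid response list, 10 of 20 were higher in both label groups, against 31.6% of all genes. The median of 0.16 went to -0.03 with scaling to the median. Atf3 passed there, while Ddit3, a pro-apoptotic factor of the unfolded protein response, at 1.39 (limma adjusted p = 0.063), and Trib3, a pseudokinase, at 1.1, did not.

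The 3 lipid metabolism genes Slc27a1, Scd1 and Cerk rose in pair 1. Slc27a1, which brings fatty acids into cells, had signals of 1561 on clone 42 and 1213 on puroB against 227 on clone 48 and 468 on puroD. Its mean log2 difference was 2.08 ± 0.34 (limma adjusted p = 0.0201). Scd1, the desaturase that makes oleate (its called probe set was chosen after its values were seen), measured 4273 and 3401 against 771 and 1531, a mean of 1.81 ± 0.35 (limma adjusted p = 0.0338). Its brighter probe set gave 1.26 and did not pass (limma adjusted p = 0.0967). Cerk, the ceramide kinase, measured 1025 and 803 against 269 and 257, a mean of 1.78 ± 0.29 (limma adjusted p = 0.0201). The list of fatty acid synthesis and lipid handling takes the brighter Scd1 probe set. There, 11 of 19 members were higher in both label groups and 0 lower, against 31.6% and 24.5% of all genes. The list median of 0.18 became 0.0 with scaling to the median.

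Most enzymes of the cholesterol pathway had higher signals in pair 1. Of 14 tested members, 10 were higher in both label groups and 0 lower in both, against 31.6% and 24.5% of all genes. The median difference was 1.19 between the Nurr1-labelled clones, 0.73 between the controls and 1.05 for their mean. The mean was 1.07 after quantile normalization and 0.87 with scaling to the median, and 0.63 without clone 42. 1 member passed, and 8 of 14 were higher at an unadjusted p under 0.05, against 6.23% of all genes. Msmo1, the C4-methylsterol oxidase, passed, at 1564 on clone 42 and 548 on puroB against 369 on clone 48 and 230 on puroD, a mean of 1.67 ± 0.31 (limma adjusted p = 0.0279). Cyp51, the lanosterol demethylase, had signals of 575 and 449 against 159 and 220 and a mean of 1.44 (limma adjusted p = 0.063). Fdps, which makes farnesyl diphosphate, measured 3434 and 2928 against 1532 and 1129, a mean of 1.27 (limma adjusted p = 0.0916). Both fell short of the threshold, as did Hmgcs1, the synthase at the head of the mevalonate pathway (chosen after its values were seen), at 1.29 (limma adjusted p = 0.0882). The 4 members Mvk, Fdft1, Tm7sf2 and Ebp were higher only between the Nurr1-labelled clones, with differences between puroB and puroD of -0.18, -0.24, -0.83 and -0.18.

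**Figure D2:**
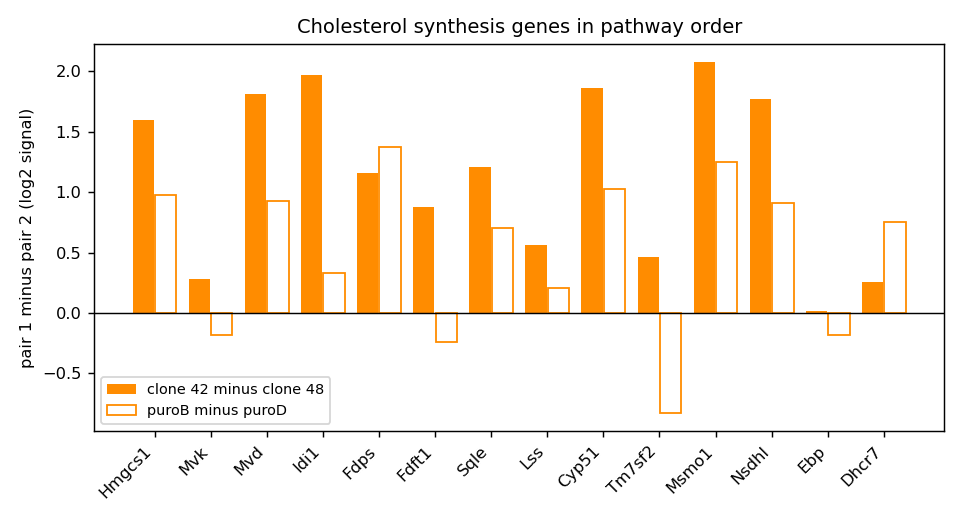
Log2 difference of pair 1 from pair 2 for the 14 tested cholesterol synthesis genes in pathway order, filled bars for clone 42 minus clone 48 and open bars for puroB minus puroD. Filled bars are above zero for all 14 genes and open bars for 10; under scaling to the median the list median is 0.87.

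The promoters of Msmo1 and Cyp51 are shown as those of the members with a RefSeq sequence and the largest smaller difference of both label groups. Both genes had more than 2-fold higher signals in each label group. RefSeq sequences of the 250 bases before each gene's start in build GRCm38.p6 follow, with the motif CCAAT or its reverse complement in capitals.
Msmo1 promoter, chr8:64733579-64733828, minus strand: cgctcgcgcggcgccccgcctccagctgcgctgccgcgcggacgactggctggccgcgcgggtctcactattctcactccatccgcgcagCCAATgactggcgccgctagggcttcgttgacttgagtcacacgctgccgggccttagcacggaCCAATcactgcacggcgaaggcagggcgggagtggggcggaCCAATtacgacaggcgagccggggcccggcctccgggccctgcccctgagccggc
Cyp51 promoter, chr5:4104698-4104947, minus strand: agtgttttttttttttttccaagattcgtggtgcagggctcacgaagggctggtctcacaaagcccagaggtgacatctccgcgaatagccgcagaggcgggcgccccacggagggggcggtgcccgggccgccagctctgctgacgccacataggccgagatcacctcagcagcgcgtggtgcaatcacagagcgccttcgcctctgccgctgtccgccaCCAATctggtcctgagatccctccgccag
The Msmo1 window holds 3 matches and the Cyp51 window 1. Of the 14 tested members, 11 had a promoter in the table and all 11 held CCAAT on either strand, against 37.5% of 27025 promoters. The sterol response element TCACCCCAC was in 1 of the 11 (9.09%), against 0.555% of all. These are letter matches and not binding sites.

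Most transcripts of mitosis had lower signals in pair 1, while none of them passed the test. Of 35 tested members, 28 were lower in both label groups and 1 was higher in both, against 24.5% and 31.6% of all genes. limma called 0 of 35, and 19 were lower at an unadjusted p under 0.05, against 3.91% of the genes. The median difference was -1.28 between the Nurr1-labelled clones, -0.30 between the controls and -0.78 for the mean, which was -0.74 after quantile normalization, -0.96 with scaling to the median and -0.37 without clone 42.

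Cdk1, the kinase that starts mitosis, had signals of 1897 on clone 42 and 3274 on puroB against 4868 on clone 48 and 5811 on puroD. Both arrays of pair 1 were below both of pair 2, as for 16.8% of all tested probe sets. The mean log2 difference was -1.09 ± 0.32 (limma adjusted p = 0.176). Birc5, a subunit of the chromosomal passenger complex, measured 969 and 1529 against 3231 and 2485, a mean of -1.22 ± 0.33 (limma adjusted p = 0.152). Tacc3, a spindle protein, measured 138 and 220 against 334 and 362, a mean of -1.0 ± 0.33 (limma adjusted p = 0.231). The proliferation antigen Mki67, chosen after its values were seen, was lower by a log2 difference of -1.94 between the Nurr1-labelled clones and of -0.17 between the controls. Pttg1, securin, was the 1 member higher in both, at 0.39 and 0.25. Aspm, a spindle pole protein outside the list, did pass, at 160 and 243 against 679 and 522, its mean being -1.59 ± 0.32 (limma adjusted p = 0.0406).

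The Cdk1 promoter is shown as that of the mitosis gene with the largest smaller difference of both label groups, with CCAAT and TTTGAA, the core of the cell cycle homology region, or their reverse complements in capitals.
Cdk1 promoter, chr10:69352913-69353162, minus strand: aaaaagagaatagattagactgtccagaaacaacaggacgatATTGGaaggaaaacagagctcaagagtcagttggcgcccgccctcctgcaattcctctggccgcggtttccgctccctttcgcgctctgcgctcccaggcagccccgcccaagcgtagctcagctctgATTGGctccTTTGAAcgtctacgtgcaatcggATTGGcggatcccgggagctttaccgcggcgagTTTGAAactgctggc
It holds 3 matches to CCAAT and 2 to TTTGAA. Of 27 mitosis members with a promoter in the table, 22 (81.5%) held CCAAT, against 37.5% of all promoters, and 14 (51.9%) held TTTGAA, against 18.3%. The Tacc3 window held neither.

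DNA replication genes had lower signals on clone 42 than on clone 48, but not on puroB than on puroD. Of 33 tested members, 10 were lower in both (30.3%, near the 24.5% of all genes) and 1 was higher in both, against 31.6%. limma called 0 of 33, and 5 were lower at an unadjusted p under 0.05, against 3.91% of the genes. The median was -0.81 between the Nurr1-labelled clones and 0.14 between the controls. Mcm2, a subunit of the replicative helicase chosen after its values were seen, had signals of 420 on clone 42, 1399 on clone 48, 1731 on puroB and 1108 on puroD, so clone 42 alone was low. Prim1, a primase subunit, went lower in both label groups, at -0.42 and -1.72 (limma adjusted p = 0.22). Of 29 members with a promoter in the table, 5 held TTTGAA, near the 18.3% of all promoters. CCAAT was held by 17 (58.6%), against 37.5% of all promoters.

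**Figure D3:**
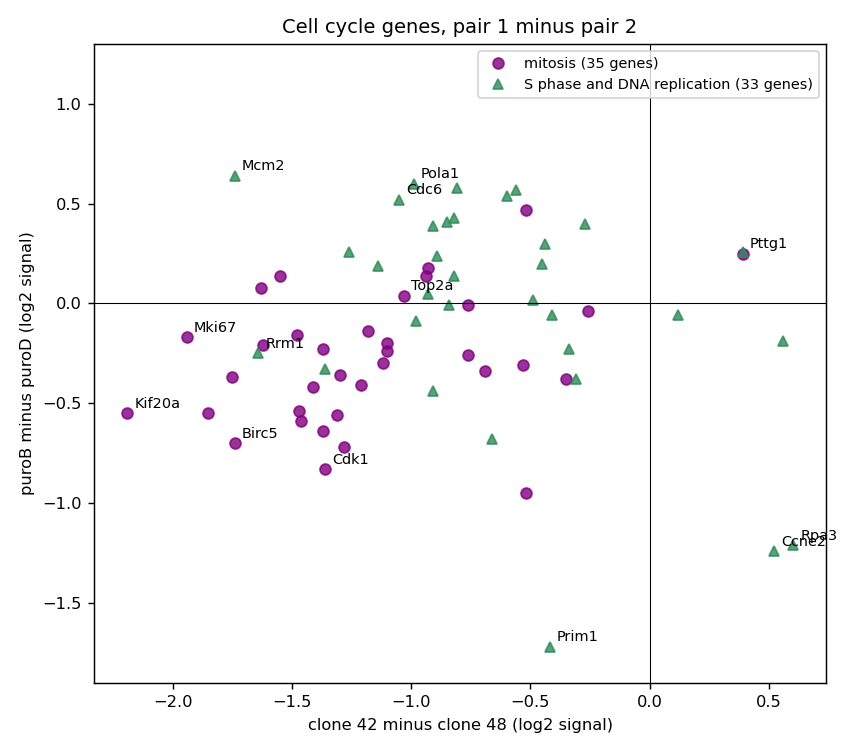
Log2 difference of clone 42 from clone 48 (horizontal) against that of puroB from puroD (vertical), for 35 mitosis genes (circles) and 33 S phase and DNA replication genes (triangles). Of the circles 28 lie at the lower left, while the triangles spread above and below zero on the vertical axis.

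Of 26 tested genes of Myc and ribosome biogenesis, 16 were lower in both label groups and 3 higher, against 24.5% and 31.6% of all genes. limma called 0 of 26. At an unadjusted p under 0.05, 3 were lower and 1 higher, against 3.91% and 6.23% of all genes. The median mean difference was -0.4, and it was -0.41 after quantile normalization and -0.58 when arrays were scaled to their medians. Odc1, which makes putrescine, measured 632 and 766 in pair 1 against 1261 and 1301 in pair 2, a mean of -0.88 (limma adjusted p = 0.254). Ncl, nucleolin, measured 6416 and 6092 against 9462 and 9898, a mean of -0.63 (limma adjusted p = 0.503). Mxd4, a Max partner that opposes Myc, was higher at 1415 and 1446 against 485 and 857, a mean of 1.15 (limma adjusted p = 0.152). Zbtb17, the Myc-interacting zinc finger protein Miz-1, passed as lower, but was tested through pair 2 alone. Its signals were 88.6 on clone 42 and 91.1 on puroB against 397 on clone 48 and 317 on puroD, a mean of -1.98 ± 0.35 (limma adjusted p = 0.0242).

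Among the regulators of differentiation, Id1 fell in pair 1. Its signals were 118 on clone 42 and 156 on puroB against 421 on clone 48 and 658 on puroD, a mean of -1.96 ± 0.31 (limma adjusted p = 0.0201). Id3, of the same family, measured 792 and 644 against 1336 and 1174 and did not pass, at -0.81 (limma adjusted p = 0.289). Id2 and Id4, chosen after their values were seen, gave means of -0.35 and 0.17. Of the other neural stem and progenitor genes, nestin (Nes, chosen after its values were seen) stood at 3171 and 3323 against 3716 and 3027, and the pairs overlapped. Sox3, a stem cell transcription factor, measured 228 and 323 against 123 and 146, a mean of 1.01 (limma adjusted p = 0.254). Of 10 tested members, 1 was higher and 4 were lower in both label groups, against 31.6% and 24.5% of all genes. Their median of 0.02 became -0.16 with scaling to the median.

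The 4 cytoskeletal genes Mapt, Sntb1, Synpo and Gsn rose in pair 1. Mapt, tau, which binds microtubules in axons, had signals of 794 on clone 42 and 913 on puroB against 277 on clone 48 and 246 on puroD, a mean of 1.71 ± 0.3 (limma adjusted p = 0.0223). Its other probe sets gave 1.57 and 1.21 and did not pass (limma adjusted p = 0.0505 and 0.127). That with 1.57 was tested through pair 1 alone. Sntb1, a dystrophin-associated syntrophin, measured 464 and 614 against 94.8 and 214, a mean of 1.91 ± 0.33 (limma adjusted p = 0.0223). Synpo, an actin-associated protein, measured 281 and 444 against 69.9 and 139, a mean of 1.84 ± 0.35 (limma adjusted p = 0.032), and was tested through pair 1 alone. Gsn, gelsolin, which severs actin filaments, measured 2523 and 2997 against 697 and 1052, a mean of 1.68 ± 0.31 (limma adjusted p = 0.0258). The arrays of the pairs did not overlap for any of the 4, as for all 31 calls and for 40.2% of all tested probe sets. Over the actin and focal adhesion list, 7 of 24 members were higher and 7 lower in both label groups, near the 31.6% and 24.5% of all genes. In limma 0 were called and 0 were at an unadjusted p under 0.05. Of 9 tested neuronal differentiation genes, 5 were higher in both label groups and 1 was lower, against 31.6% and 24.5% of all genes. Their median was 0.27, and Mapt alone passed. With scaling to the median 4 were higher and 2 lower, with a median of 0.09.

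Genes of 6 secreted or cell surface proteins rose in pair 1, and Igfbp3 fell. Ccn4, a matricellular target of Wnt signalling, had signals of 2450 on clone 42 and 1017 on puroB against 922 on clone 48 and 313 on puroD, a mean of 1.56 ± 0.3 (limma adjusted p = 0.0338). Clone 48 and puroB lay close to each other there. Timp2, an inhibitor of metalloproteases, measured 1267 and 1277 against 375 and 552, a mean of 1.48 ± 0.3 (limma adjusted p = 0.0406). Serpina3n, a secreted protease inhibitor, measured 435 and 1233 against 159 and 327, a mean of 1.68 ± 0.3 (limma adjusted p = 0.0242). Igf1, the growth factor, measured 432 and 879 against 102 and 394 on the probe set that passed, which was chosen after its values were seen (1.62, limma adjusted p = 0.0361). The brighter Igf1 probe set gave 0.68 and did not pass (limma adjusted p = 0.392). The Igf1 binding protein Igfbp3 was lower, at 204 and 346 against 482 and 1223, a mean of -1.53 ± 0.3 (limma adjusted p = 0.0351). A second Igfbp3 probe set gave -0.7 and did not pass (limma adjusted p = 0.427). The vitamin B12 carrier Tcn2 and the adhesion receptor Adgrg1, both chosen after their values were seen, passed at 1.78 and 1.41.

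The other named calls were of 3 enzymes and a signalling regulator. St6gal1, a sialyltransferase, measured 377 on clone 42 and 386 on puroB against 81.4 on clone 48 and 127 on puroD, a mean of 1.91 ± 0.35 (limma adjusted p = 0.0258). It was tested through pair 1 alone, and its brighter probe set, above the filter on all arrays, gave 0.86 and did not pass. B3galt2, a galactosyltransferase, measured 507 and 359 against 170 and 118, a mean of 1.59 ± 0.32 (limma adjusted p = 0.0372). Cryz, a quinone oxidoreductase, measured 194 and 354 in pair 1, while clone 48 at 46.5 and puroD at 54.4 were under the floor, so that it too was tested through pair 1 alone. Its differences are therefore at least 3.09-fold and at least 5.65-fold, and its adjusted p in limma went from 0.0361 to 0.0536 without a floor. Rgs16, which shortens G protein signals, passed as lower on 2 probe sets, one at 686 and 1734 against 3446 and 3926 (mean -1.75) and the other at 252 and 453 against 832 and 1049 (mean -1.47). The 3 called probe sets without a single symbol were all higher in pair 1, by means of 1.92, 1.56 and 1.51.

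**Figure D4:**
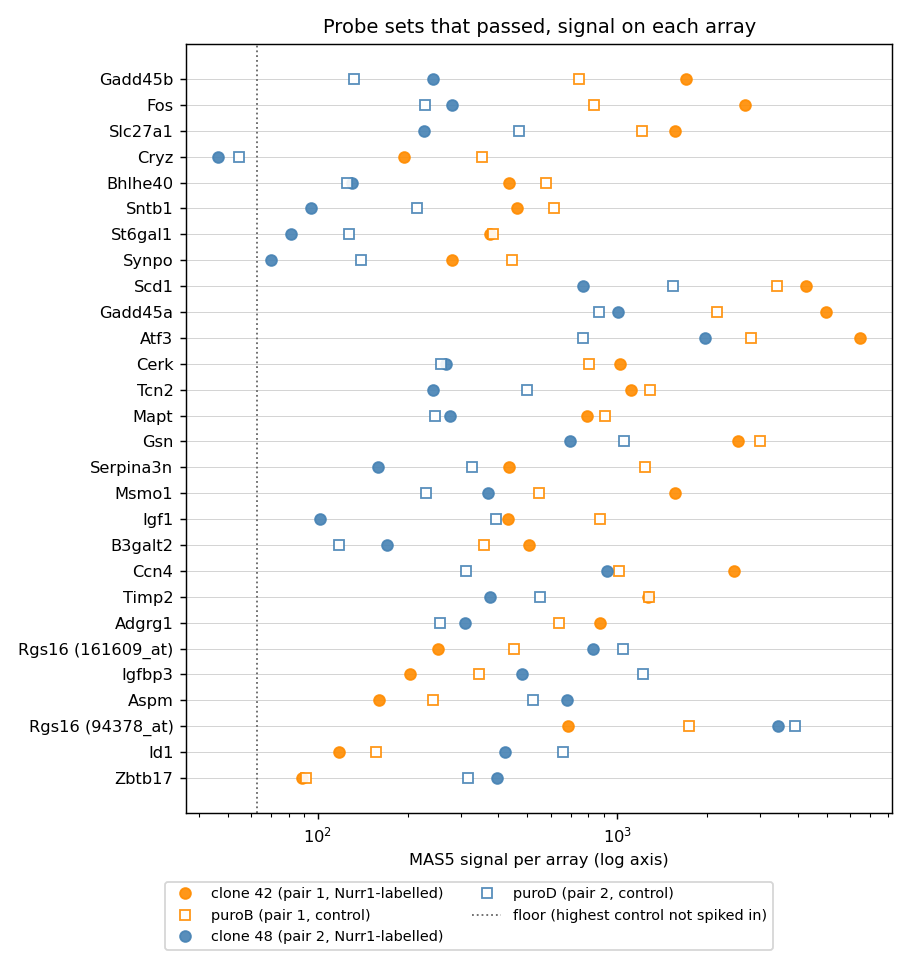
MAS5 signal on each array (log axis) for the 28 probe sets that passed and carry 1 gene symbol, orange for pair 1 and blue for pair 2, filled circles for Nurr1-labelled and open squares for control lines; the dotted line is the floor of 62.6. In each line of the plot both orange marks lie on one side of both blue marks, as for 40.2% of all tested probe sets.

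Of the 22 probe sets at least 2-fold lower in both label groups, 16 did not pass, and the 10 genes named here are those with 1 symbol and the largest smaller difference of both groups. Closest to the threshold were Snx5, a sorting nexin, at 169 and 147 against 390 and 528 (mean -1.52, limma adjusted p = 0.0505), and Miip at 136 and 222 against 466 and 508 (mean -1.48, limma adjusted p = 0.0505). Their other probe sets gave -0.13 and 0.38. Hnrnpu, an RNA-binding nuclear scaffold protein, had a mean of -1.35 (limma adjusted p = 0.0549). The chaperone Hsph1 stood at 1096 and 1339 against 2673 and 2810, a mean of -1.18 (limma adjusted p = 0.127). Kifc1, a spindle motor, had a mean of -1.46 with overlapping pairs, and Gata4, a GATA factor, was at the floor on both arrays of pair 1. Rttn, Pcsk4, Slc6a2 and Mettl18 had means between -1.26 and -1.14. Gata4, Pcsk4, Slc6a2 and Mettl18 were tested through pair 2 alone, so their entry into the test depended on the difference itself. Kifc1 and Slc6a2 were at the floor on clone 42.

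Hypoxia response genes were higher in both label groups for 8 of 14 members, against 31.6% of all genes. Their median was 0.21 between the Nurr1-labelled clones and 0.67 between the controls. For the mean of both it was 0.39, and 0.21 with scaling to the median. Bhlhe40, tested through pair 1 alone, passed. Ndrg1 did not, at 0.97, and neither did Vegfa, the vascular growth factor, which was under the floor on clone 48. Of 13 tested growth factors and receptors of the FGF, EGF, PDGF and neurotrophic families, 8 were higher in both, against 31.6% of all genes. Gdnf, a survival factor for dopamine neurons, had signals of 1844 and 791 against 679 and 494 (mean 1.06, limma adjusted p = 0.183). Sema3e, an axon guidance ligand, measured 1685 and 865 against 815 and 252 (mean 1.41, limma adjusted p = 0.0549). Proteasome subunits were lower in both for 16 of 30 members, against 24.5% of all genes. Their median was -0.08 between the Nurr1-labelled clones and -0.4 between the controls. For the mean of both it was -0.25, and -0.43 with scaling to the median. Mitochondrial respiration genes were lower in both for 15 of 47 (31.9%, against 24.5% of all genes), and for 33 with scaling to the median, with medians of 0.03 between the Nurr1-labelled clones and -0.49 between the controls. The list of D cyclins and cell cycle inhibitors gave 7 higher and 3 lower of 16, against 31.6% and 24.5% of all genes. Gadd45a and Gadd45b passed (2 of 16, against 0.484% of the genes). Cdkn1a, the p21 inhibitor that p53 induces, was at 0.57 (limma adjusted p = 0.531).

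**Figure D5:**
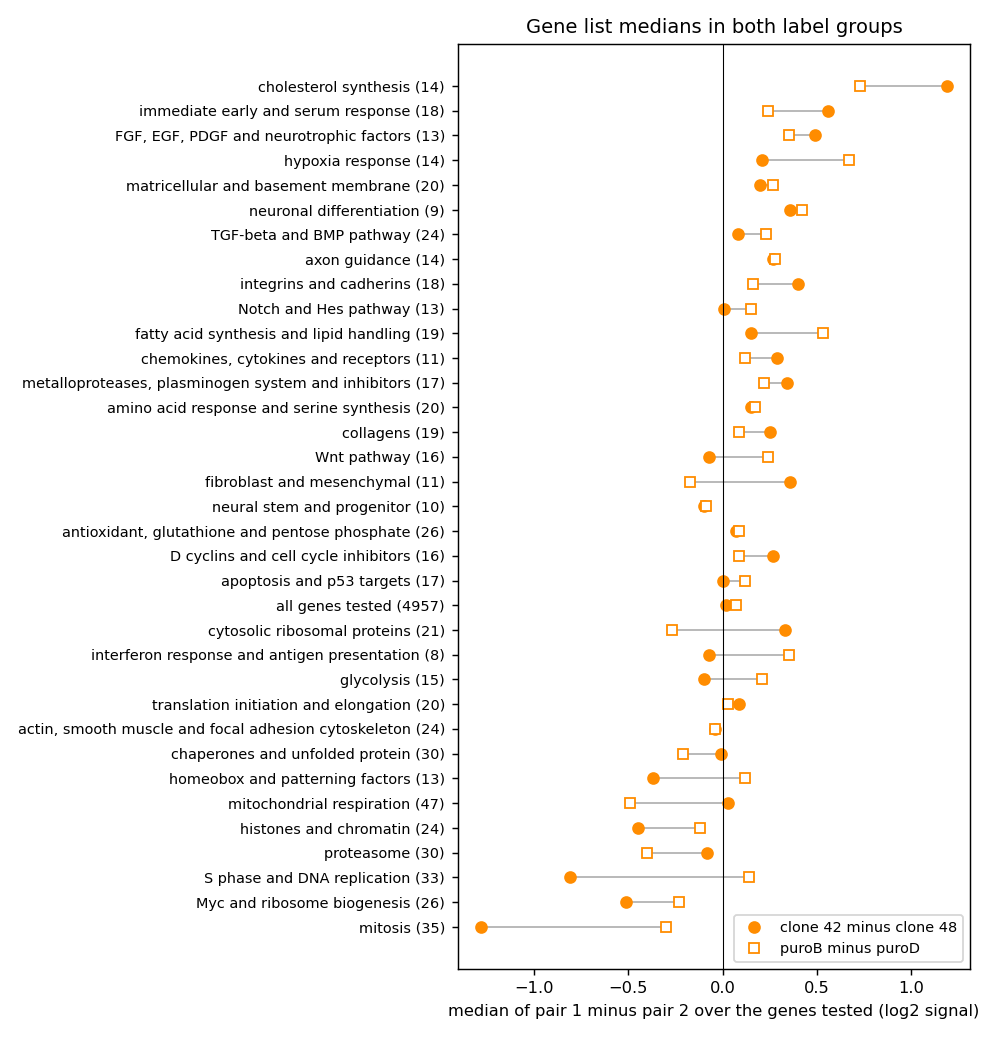
Median log2 difference of pair 1 from pair 2 over the tested genes of each list with at least 8 members (number in parentheses), filled circles for clone 42 minus clone 48 and open squares for puroB minus puroD. Cholesterol synthesis lies highest in both label groups and mitosis lowest for clone 42 minus clone 48, while mitochondrial respiration is lowest for puroB minus puroD at -0.49; scaling to the median lowers the median of all probe sets to -0.16 and turns the sign of lists near zero.

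Markers of other cell types were read beside these results, and in RNA from whole cultures fewer cells of a type and less RNA per cell cannot be told apart. Of 12 microglia and macrophage markers on the array, 5 (Aif1, Itgam, Ptprc, Tyrobp and Lyz2) were at the floor on all arrays, and the summed signals were 1145 and 1378 in pair 1 against 849 and 1241 in pair 2. Of 9 endothelial markers, 5 including Cdh5 and Vwf were at the floor throughout, with sums of 3530 and 4406 against 4222 and 4691. Most of each sum was Eng, chosen after its values were seen, at 3169 and 4014 against 4012 and 4416. Of 21 neuronal markers, 8 including Dcx and Snap25 were at the floor throughout, with sums of 18525 and 15617 against 18689 and 16345. Stmn1 and Tubb3, chosen after their values were seen, made up most of each sum. Stmn1, which is also in the mitosis list, measured 8727 and 8627 against 11094 and 11239. Tubb3 measured 5683 and 2701 against 4628 and 2701. Summed astrocyte markers were 5685 and 7202 against 4546 and 6947, oligodendrocyte markers 5582 and 5379 against 8038 and 3953, and fibroblast markers 47593 and 26375 against 34401 and 34715, and the pairs overlapped in each of these sums. Sox10, chosen after its values were seen, made up most of each oligodendrocyte sum, at 5114 and 4745 against 7660 and 3434. Stem and progenitor markers summed to 6842 and 8291 against 7700 and 9134, and dopaminergic markers to 2836 and 1790 against 1922 and 1432, again with overlap. Among stem cell markers, Pax6, Hes5 and Prom1 were at the floor on all 4 arrays, while nestin was well above it. Their part in the differences was not tested.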

How the data were processed

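The 4 deposited arrays hold 1 linear intensity value per probe set, which the authors made with MAS5 per the submitters' processing notes, with no version named. Trimmed of 2% at each end, the arrays had means of 500.4 to 500.5. Each array was rescaled to 500, signals under 62.6 were raised to 62.6 as a floor, and values were taken to log2. Of 12469 probe sets, 66 array controls were left out, and those above the median of all values (145.05) on at least 2 arrays were tested. Differences came from limma 3.58.1 in R 4.3.3 (lmFit with the label as block, eBayes with an intensity trend, Benjamini-Hochberg threshold 0.05). The fit was run on simulated data, with independent noise on each array and no clone or label effects. It recovered 31.3% of changes of log2 size 1 and 100% of those of 2 and 3. Because clone effects were not simulated, the run cannot show how the fit performs on single clones. No label says the lines were cultured more than once, and each pair holds 1 clone per label. The spread between like clones or cultures was therefore not measured. With the label as block, the 1 residual degree of freedom reflects only disagreement of the label groups about the pair difference. The pooled spread of other probe sets weighed more, as 14.1 degrees of freedom. With no counts the number of arrays limits the precision.

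Symbols came from the platform annotation (10814 probe sets with 1 symbol, 396 with several and 1193 with none). In each direction up to 15 genes were named, by the smaller of the differences in the label groups, those past the threshold first; up to 3 genes per list, by the same order over each gene's brightest probe set; Nr4a2; and the array controls. Genes outside this rule are marked as chosen after their values were seen. The members and lists were chosen with earlier results of these data known. Alternatives were the block, 2 other scalings, the floor, the filter, the intensity trend and leaving out each array. The floor is higher than the 30th percentile of all values (40.3), because unspiked controls reached 62.6.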

Additional observations from a re-analysis of the deposited data

Results flagged for a closer look

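For 5 gene lists the label groups moved in opposite ways, with medians of opposite sign, each at least 0.1 in size; the difference between label groups was not tested. S phase and DNA replication genes had a median of -0.81 for clone 42 minus clone 48 and 0.14 for puroB minus puroD. Cytosolic ribosomal protein genes had medians of 0.33 and -0.27 in the same order. Fibroblast and mesenchymal genes had 0.36 and -0.17, homeobox and patterning factors -0.37 and 0.12, and glycolysis genes -0.1 and 0.21.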

How the results depend on the processing

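Every one of the 31 calls kept its direction in each setting where its probe set was tested. For all 31 the arrays of the pairs did not overlap, so leaving out an array or the block could not turn the direction. The kept direction is thus no separate support for the calls. limma made 0 calls without the label block (521 probe sets at an unadjusted p under 0.05), 0 after quantile normalization (580) and 0 without the filter (615). Scaling to the median gave 67 calls, 34 higher and 33 lower. The filter on all 4 arrays gave 100, 71 higher and 29 lower, and 46 probe sets with 2-fold differences in both label groups. Without the intensity trend there were 19, 17 higher and 2 lower. Leaving out 1 array, which drops the block and assumes that the lone array varies like the others, gave 0 to 37 calls, 0 to 20 higher and 0 to 17 lower. The 37 came without puroB, and there were 0 without clone 42 (578 at an unadjusted p under 0.05), clone 48 (280) or puroD (432). With the block dropped and the label groups unequal in size, a gap between the label groups enters the difference between pairs. En1 ranged from -0.40 to 1.01, Snai2 from -0.04 to 1.05 and Col6a2 from -0.34 to 0.80 over these fits. En1 had signals of 1295 on clone 42 and 1067 on clone 48 against 508 on puroB and 403 on puroD. In the same order Snai2 had 3232 and 2124 against 1525 and 1151, and Col6a2 1042 and 808 against 474 and 446. The part of this gap in the ranges was not tested. The count of 2-fold differences in both label groups needs all arrays and was not run on fewer. MAS5 signals near the floor limit what can be said of dim genes.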

Other observations

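Histone and chromatin genes were lower in pair 1 in both label groups for 11 of 24 tested members and higher for 3, against 24.5% and 31.6% of all genes. In limma 0 were called. At an unadjusted p under 0.05, 2 were lower and 2 higher, against 3.91% and 6.23% of all genes. H1f2, a linker histone, went the other way from most, with signals of 1613 on clone 42 and 584 on puroB against 847 on clone 48 and 340 on puroD; puroB lay below clone 48, so the pairs overlapped. The lysosomal proteases Ctsb and Ctsd had mean log2 differences of 0.95 and 0.93, and Ctsb measured 7913 and 4349 against 3654 and 2537. In the antioxidant list Hmox1, which breaks down haem, stood higher in pair 1 at 1.19, and Gclm, a subunit of the enzyme that makes glutathione's precursor, lower at -0.99. None of these genes passed limma's threshold.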
